A study of Mus musculus with 6 samples.

Results

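Laminins are trimers of an alpha, a beta and a gamma chain, each encoded by its own gene, and nidogens and perlecan are the proteins that tie the laminin network to collagen IV. The genes described here are 10 of the 19856 genes measured, chosen by name with earlier results of these data known. They are the laminin chain genes Lama1, Lama2, Lama4, Lama5, Lamb1, Lamb2 and Lamc1, the nidogen genes Nid1 and Nid2, and the perlecan gene Hspg2. Each had 1 probe set that carried its symbol alone, so no choice between probe sets arose. They were compared in cultured mouse embryonic fibroblasts, connective tissue cells grown out of embryos, in a tetraploid line labelled as having abnormal DNA content, which the series title calls transformed, and in a diploid line labelled as a normal control. Each line was grown in DMEM with fetal bovine serum, harvested before confluence and measured in 3 samples, 1 Affymetrix whole-transcript array per sample. As 1 line stood for each ploidy, the effects of ploidy, of transformation and of the line itself cannot be told apart. Nothing in the labels shows that the samples of a line came from separate cultures, and p-values then measure only the spread between these samples, which may be technical.

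Basement membranes are thin sheets of matrix under epithelia and around muscle, fat, nerve and vessels. Laminin trimers polymerise on the cell surface, where integrins and dystroglycan hold them, and the alpha chain carries most of the sites that these receptors bind. The gamma 1 chain, which most laminins share, carries the site that nidogen binds, and nidogen and perlecan in turn bind collagen IV. Fibroblasts in culture secrete laminins, nidogens and perlecan without building a full basement membrane.

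The promoter sequences of the 3 genes whose difference between the lines stayed past the test whichever array was left out are shown first, since they differ in make-up although all 3 genes were lower in the tetraploid line. They are the 250 bases before the gene's start in the RefSeq table of the mouse build GRCm38.p6, read in the direction of the gene, at chr10:27616943-27617192 (minus strand), chr2:180225860-180226109 (minus strand) and chr4:137468553-137468802 (plus strand). Capitals mark the GC box GGGCGG on either strand, the element bound by SP1-type factors.
Lama2: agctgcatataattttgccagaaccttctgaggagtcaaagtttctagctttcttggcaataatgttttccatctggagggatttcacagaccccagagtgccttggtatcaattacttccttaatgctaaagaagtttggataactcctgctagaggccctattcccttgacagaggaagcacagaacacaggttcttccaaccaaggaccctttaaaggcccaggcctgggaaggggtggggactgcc
Lama5: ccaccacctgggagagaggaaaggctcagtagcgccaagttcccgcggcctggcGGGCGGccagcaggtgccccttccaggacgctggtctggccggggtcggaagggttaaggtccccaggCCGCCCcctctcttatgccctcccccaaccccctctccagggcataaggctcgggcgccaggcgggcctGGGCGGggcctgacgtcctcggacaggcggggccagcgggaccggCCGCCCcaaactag
Hspg2: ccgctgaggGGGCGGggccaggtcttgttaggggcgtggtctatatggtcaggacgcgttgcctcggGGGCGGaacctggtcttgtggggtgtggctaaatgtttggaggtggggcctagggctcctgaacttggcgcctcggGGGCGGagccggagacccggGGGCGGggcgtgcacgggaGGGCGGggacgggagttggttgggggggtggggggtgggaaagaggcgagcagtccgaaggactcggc
The Hspg2 window held 5 GC boxes and the Lama5 window 4, while the Lama2 window held 0. Of 32851 windows of the same length in the table, 32.7% held at least 1 GC box and 4.09% held at least 4. The GC content was 70.0% before Hspg2, 72.4% before Lama5 and 47.2% before Lama2, against a median of 52.4% over all windows. The table held 6 of the 10 genes. Of the other three in it, Lamb1 had 2 GC boxes, Nid1 had 1 and Lamb2 had 0. Searches on both strands for the TATA box TATAAA, the E-box CACGTG and the AP-1 element TGACTCA found 0 matches in these 6 windows, and the TEAD element GGAATG was found in that of Nid1 alone. These elements occur in 12.4%, 6.02%, 4.46% and 12.6% of all windows in that order, and the matches in the 6 windows did not overlap. A match is a run of letters and does not show that a factor binds there.

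Array medians differed by at most 0.0435 on the log2 scale, and between 10212 and 11300 genes per array lay above a background level. That level was the 95th percentile of 1027 olfactory receptor genes on the array and lay between 7.01 and 7.41 log2. All 10 fibroblast markers examined, among them Col1a1, Vim and Pdgfrb, lay above it on all 6 arrays. The correlation across genes was 0.923 to 0.940 between tetraploid arrays and 0.951 to 0.965 between diploid arrays; genes are no independent replicates. The number of arrays, 3 per line, limits the precision.

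In the tetraploid line 5 of the 10 genes were lower and 0 were higher: Lama1, Lama2, Lama5, Lamc1 and Hspg2. Without any 1 of the diploid arrays the count was 3, and Lama1 lay at or below background on all 6 arrays. Of all genes tested, 7.80% were called lower and 6.15% higher. A call is an adjusted p under 0.05 in limma's two-sided moderated test, adjusted by Benjamini and Hochberg's method across the 19856 genes. The median difference, tetraploid minus diploid, was -1.18 log2 over the 10 genes and 0.07 over all genes, and with values under background raised to it the medians were -0.90 and 0.12. That 0.12 is the gap between the mean background levels of the lines, which every gene under background on all 6 arrays takes, and is no shift in expression. In 8 of the 10 genes every tetraploid value lay below every diploid value, which held for 18.2% of all genes. Since the 10 genes were chosen with earlier results of these data known, their counts beside the shares over all genes are a description only. Among the 10, those called were 3 of 4 alpha chain genes, Lamc1 and the perlecan gene, while Lamb1, Lamb2 and the nidogens did not pass. The laminin chain genes Lama3, Lamb3 and Lamc3 are not among the 10 and were not called (limma adjusted p = 0.562, 0.581 and 0.957). Of the 10 genes 7 lay above background on all 6 arrays. The difference is relative to other genes on the array and gives no amount per cell, and in such bulk samples fewer cells of a type and less RNA per cell cannot be told apart.

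**Figure D1:**
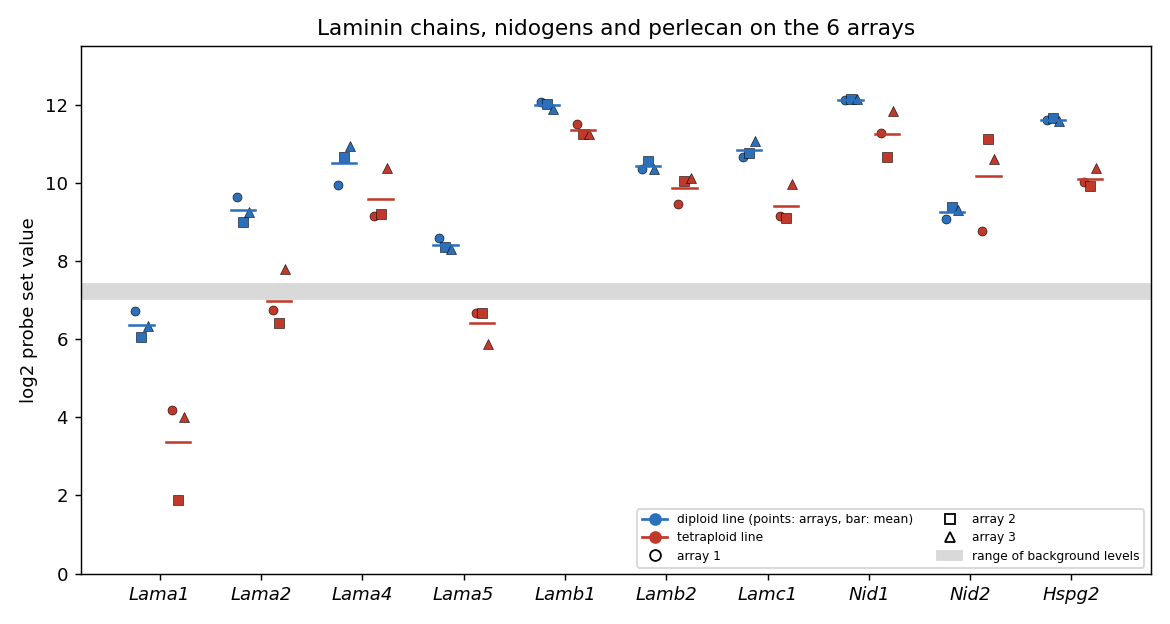
Log2 probe set values of the 10 genes on the 3 diploid arrays (blue) and the 3 tetraploid arrays (red), with a bar at each line's mean and a grey band from 7.01 to 7.41 for the background levels. The red points lie below the blue points in all genes but Lama4 and Nid2, where they overlap. Heights of different genes cannot be compared, since each probe set has its own response.

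Of the 4 alpha chain genes examined here 3 were called lower, of which Lama1 was not above background on any array and Lama5 on no tetraploid array. Lama2, the alpha chain of muscle and nerve laminins, stood at 6.75, 6.42 and 7.79 log2 on tetraploid arrays 1 to 3, against 9.63, 8.99 and 9.26 on diploid arrays 1 to 3. All diploid values lay above all tetraploid values, and 1 of the 3 tetraploid arrays, array 3, lay above background. Means were 6.99 ± 0.71 and 9.29 ± 0.32 (SD, n = 3; difference -2.31, SE 0.38, limma adjusted p = 0.0122). Since 2 of the 3 tetraploid values lay under background, the level is given as at least 3.57-fold lower, with these raised to it. In the fits that left out 1 array in turn, the adjusted p of Lama2 reached at most 0.0474.

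Lama5, the broadly expressed alpha chain of adult epithelial and endothelial basement membranes, stood at 6.66, 6.67 and 5.87 log2 on the tetraploid arrays and at 8.57, 8.35 and 8.32 on the diploid arrays. The lines did not overlap, and all 3 tetraploid values were at or below background, so that line has only a bound. Lama5 was at least 2.18-fold lower there, from measured means of 6.40 ± 0.46 and 8.41 ± 0.14 (SD, n = 3; limma adjusted p = 0.00655). The adjusted p was at most 0.0324 with any 1 array left out.

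Lama1, the alpha chain of the early embryo, was called but lay at or below background everywhere. Its values were 4.19, 1.90 and 4.02 log2 on the tetraploid arrays, against 6.72, 6.04 and 6.33 on the diploid arrays (difference -3.00, SE 0.60, limma adjusted p = 0.0218). No fold can be given for it, and raising all values to the background level ended the call by construction (difference 0.12, adjusted p = 0.463). The call also ended without diploid array 1, 2 or 3 (adjusted p 0.0743, 0.0631 and 0.0685).

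Lama4, the alpha chain of vessels, fat and mesenchymal cells, did not pass the test. It stood at 9.16, 9.19 and 10.38 log2 on the tetraploid arrays and at 9.94, 10.66 and 10.94 on the diploid arrays. The lines overlapped, because tetraploid array 3 lay above diploid array 1. The difference was -0.93 (SE 0.42, 95% interval -1.92 to 0.05, limma adjusted p = 0.190). Within each array, Lama2 minus Lama4 was -2.59 ± 0.18 in the tetraploid line and -1.22 ± 0.79 in the diploid line (SD, n = 3). These sets of values did not overlap, but the exact two-sided permutation test gave p = 0.1, the smallest that 3 against 3 arrays can give, and 0.267 after the Benjamini-Hochberg adjustment over 8 gene pairs compared in this way. The pairs were chosen after the values were seen.

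Among the beta and gamma chain genes examined here, Lamc1 fell and Lamb1 and Lamb2 did not pass the test. Lamc1, whose gamma 1 chain is part of most laminin trimers, stood at 9.14, 9.10 and 9.98 log2 on the tetraploid arrays and at 10.65, 10.76 and 11.07 on the diploid arrays. Every array was above background and the lines did not overlap. The level was 2.67-fold lower in the tetraploid line (9.41 ± 0.49 against 10.83 ± 0.22, SD, n = 3; difference -1.42, SE 0.29, limma adjusted p = 0.0237). The call of Lamc1 was narrow. It ended without tetraploid array 1 or 2 (adjusted p 0.0568 and 0.0695) and without diploid array 1, 2 or 3 (adjusted p 0.0645, 0.0807 and 0.0842), while the difference stayed between -1.70 and -1.27.

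Lamb1, the beta chain of the laminins that embryonic and mesenchymal cells make, stood at 11.52, 11.26 and 11.25 log2 on the tetraploid arrays and at 12.07, 12.01 and 11.89 on the diploid arrays. All tetraploid values were the lower ones, and both groups were tight (11.34 ± 0.15 against 11.99 ± 0.09, SD, n = 3). The difference was -0.65 (SE 0.19, limma adjusted p = 0.0672), which missed the threshold. Lamb1 passed when only genes above background on all arrays of at least 1 line were tested (adjusted p = 0.0202). It also passed when values were raised to the background level or when limma's prior variance followed the signal level (adjusted p 0.00767 in both). In the 6 fits that left out 1 array Lamb1 never passed (limma adjusted p 0.0537 to 0.204). Nor did it pass with a replicate block, median centring, quantile normalization or averaged probe sets (at most 0.140).

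Lamb2, the beta chain found at the kidney filter and the neuromuscular junction, stood at 9.45, 10.05 and 10.12 log2 on the tetraploid arrays and at 10.36, 10.56 and 10.36 on the diploid arrays. The values did not overlap, though tetraploid arrays 2 and 3 lay close to the diploid ones. The difference was -0.55 (SE 0.24, 95% interval -1.13 to 0.02, limma adjusted p = 0.184). Within arrays, Lamb1 minus Lamb2 was 1.46 ± 0.52 in the tetraploid line and 1.56 ± 0.14 in the diploid line (SD, n = 3; exact permutation p = 0.900, adjusted 0.900 over the 8 pairs).

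**Figure D2:**
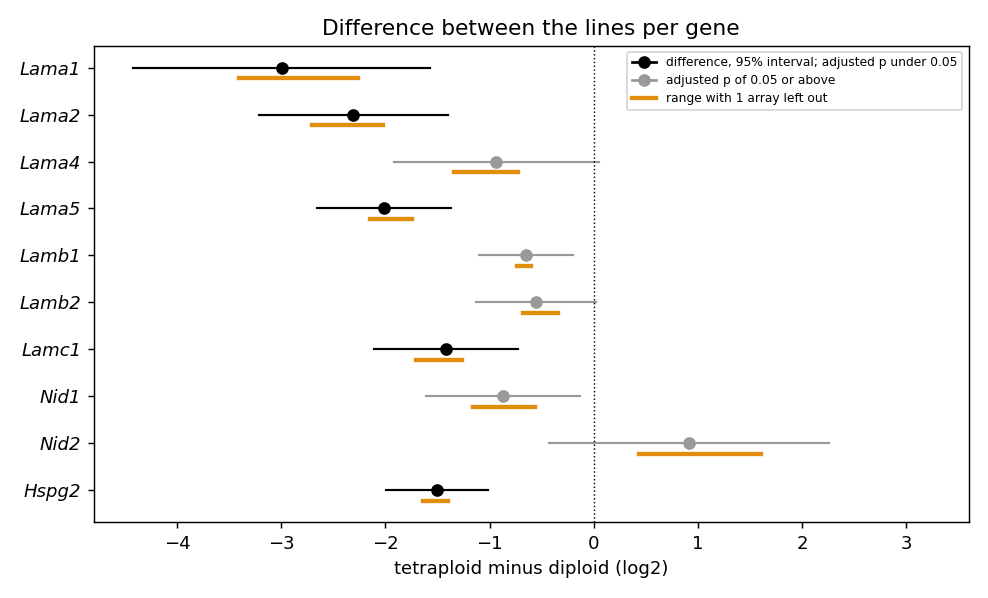
Difference between the lines on the log2 scale for each gene, tetraploid minus diploid, with its 95% interval from limma; black marks genes with an adjusted p under 0.05, and the orange bar spans the differences when 1 of the 6 arrays was left out. Of the 10 differences, 9 lie below 0, and Nid2 at 0.91 lies above it; Lama1 lay at or below background on all arrays, and its difference has no measurable size.

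Of the 3 linker genes Hspg2 fell, Nid1 did not pass, and Nid2 had a higher mean in the tetraploid line without passing. Hspg2, which encodes the large heparan sulfate proteoglycan perlecan, stood at 10.01, 9.90 and 10.39 log2 on the tetraploid arrays and at 11.59, 11.65 and 11.57 on the diploid arrays. A gap of 1.18 separated the highest tetraploid from the lowest diploid value. The level was 2.83-fold lower in the tetraploid line (10.10 ± 0.25 against 11.60 ± 0.04, SD, n = 3; difference -1.50, SE 0.21, limma adjusted p = 0.00689). The adjusted p was at most 0.0400 with any 1 array left out.

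Nid1, which encodes the nidogen found in nearly all basement membranes, stood at 11.27, 10.65 and 11.84 log2 on the tetraploid arrays and at 12.12, 12.13 and 12.13 on the diploid arrays. The diploid arrays agreed to within 0.0132, whereas the tetraploid arrays ranged over 1.19 and lay below them. The difference was -0.87 (SE 0.31, limma adjusted p = 0.117). Nid1 passed without tetraploid array 3 (difference -1.16, adjusted p = 0.0420) and when only genes above background on all arrays of at least 1 line were tested (adjusted p = 0.0484). It also passed with every value brought up to background (adjusted p = 0.0345) and with a prior variance that followed the signal level (adjusted p = 0.0307). Without any other array Nid1 did not pass (limma adjusted p at most 0.252). Nor did it pass with a replicate block, median centring, quantile normalization or averaged probe sets (at most 0.144).

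Nid2, the second nidogen, which binds laminin and collagen IV much as Nid1 does, stood at 8.77, 11.12 and 10.61 log2 on the tetraploid arrays and at 9.07, 9.37 and 9.31 on the diploid arrays. Tetraploid array 1 lay below all diploid arrays, and tetraploid arrays 2 and 3 lay above them. The difference was 0.91 (SE 0.57, 95% interval -0.43 to 2.26, limma adjusted p = 0.343). Without tetraploid array 1 it was 1.61 and passed the test (adjusted p = 0.0176). Over its 6 fits without 1 array the adjusted p ranged from 0.0176 to 0.678.

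The nidogens were also compared with each other within arrays. Nid1 minus Nid2 was 2.50, -0.47 and 1.24 log2 on the tetraploid arrays, against 3.04, 2.76 and 2.82 on the diploid arrays. All tetraploid values lay below all diploid ones, and the means differed by -1.78 (exact permutation p = 0.1, the smallest possible; 0.267 over the 8 pairs). Nid1 minus Lamc1, which pairs a nidogen with the laminin chain that binds it, was 1.85 ± 0.29 in the tetraploid line and 1.30 ± 0.21 in the diploid line (SD, n = 3; exact permutation p = 0.1, adjusted 0.267). With 3 arrays a line, no pair could reach the threshold.

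The SD over 3 arrays was larger in the tetraploid than in the diploid line in 10 of the 10 genes, against 64.8% of all genes. The median SD was 0.545 in the tetraploid and 0.148 in the diploid line, where over all genes it was 0.345 and 0.235. Tetraploid array 3 held the highest tetraploid value of 6 genes, namely Lama2, Lama4, Lamb2, Lamc1, Nid1 and Hspg2, and the lowest of Lama5 and Lamb1. Over all genes that array held the highest value in 28.8%. Tetraploid array 2 held the lowest tetraploid value of 5 genes, namely Lama1, Lama2, Lamc1, Nid1 and Hspg2, and over all genes in 31.1%. The values of Lama1 lay under background. Nid2 was lowest on array 1, as were Lama4 and Lamb2, and highest on array 2, as was Lama5. In the diploid line Lama1, Lama2, Lama5 and Lamb1 were highest on array 1, whereas Lama4, Lamc1 and Nid1 were lowest there and highest on array 3. The mean of 10 macrophage and leukocyte markers was 4.91, 6.50 and 7.39 on diploid arrays 1 to 3, and its part in the diploid values of the 10 genes was not tested.

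**Figure D3:**
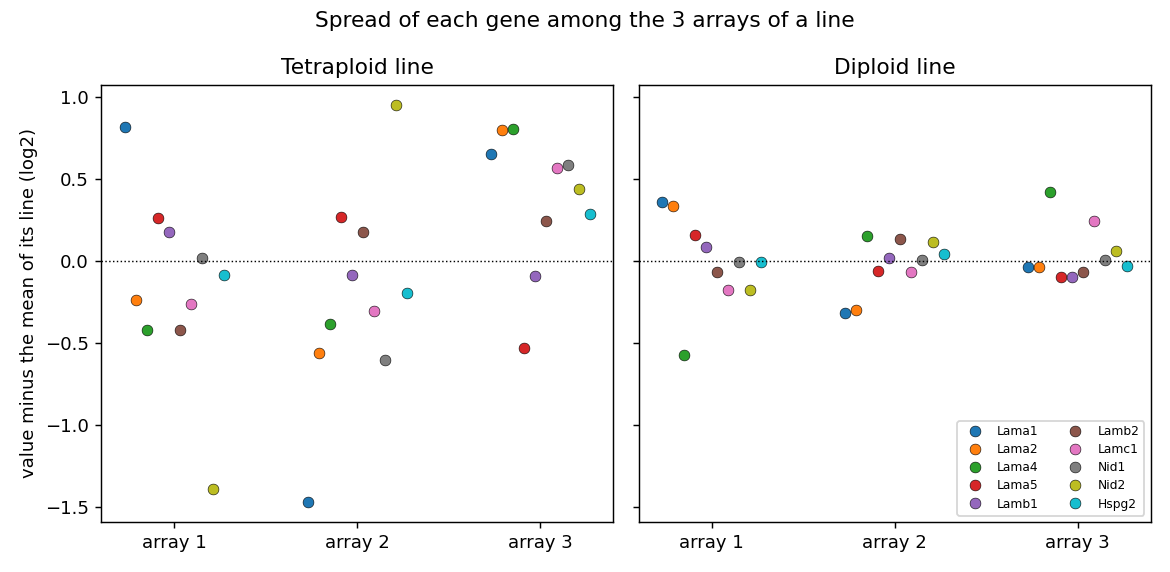
Each gene's log2 value minus the mean of its line, on the 3 arrays of the tetraploid line (left) and of the diploid line (right); each colour is 1 gene. Tetraploid deviations run from -1.47 (Lama1, array 2) to 0.95 (Nid2, array 2) and diploid deviations from -0.58 to 0.42 (Lama4, arrays 1 and 3).

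Among all genes above background in the diploid line, those whose course over the 6 arrays was most like that of Lamc1 were sought, by the root mean square difference after each gene was centred on its mean. The closest of 9893 candidates were Zfp36 (0.0995 log2), which encodes an mRNA decay factor, Syt8 (0.112), the adhesion gene Nectin2 (0.121), Zfp568 (0.137) and the exchange factor gene Plekhg2 (0.146). Hspg2 was the closest of the other laminin and linker genes at 0.205, and 0.394% of the genes above background in the diploid line were closer. Lama4 followed at 0.336 and Nid1 at 0.345, with 3.00% and 3.30% of genes closer. Nid2 was farthest at 1.36. Such likeness over 6 arrays is set mostly by the gap between the lines and is given as a description. The candidates had to be above background in the diploid line alone: Syt8 lay under it on all 3 tetraploid arrays and Zfp568 on arrays 1 and 2, so their closeness rests on values not above background.

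Of the measured genes next to the 10 genes in chromosome order, 2 on each side were examined. Of these 40 neighbours 3 were lower in the tetraploid line, 3 were higher and 34 did not pass, against 14.0% of all genes called in either direction. This is near the share over all genes. Those called were Ptprm and Arhgap28 beside Lama1, 5930403N24Rik, Fam229b and Tube1 near Lama4, and Arpc5 near Lamc1. With 1 array left out, the call of Tube1, which encodes epsilon tubulin, held in 6 of 6 fits, and those of the other five ended without diploid array 1 or 2 and in 2 or 3 further fits (limma adjusted p at most 0.138 for Ptprm, 0.0966 for Arhgap28, 0.123 for 5930403N24Rik, 0.141 for Fam229b and 0.133 for Arpc5). Values raised to background ended the calls of 5930403N24Rik (adjusted p = 0.646), above background on 0 tetraploid and 2 diploid arrays, and of Fam229b (0.463), above it on 1 tetraploid and 0 diploid arrays. None of the 4 neighbours of Lama2, Lama5 or Hspg2 was called by limma. Of the 40 neighbours 11 lay at or below background on all arrays, so no difference could be measured for them. Among these were Hrh3 near Lama5 and Cela3b and 1700013G24Rik near Hspg2. The other neighbours of Hspg2, Ldlrad2 and Usp48, had differences of -0.34 and -0.52 (limma adjusted p = 0.314 and 0.106).

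The collagens of the basement membrane, among them the collagen IV that nidogen and perlecan bind, fell in part. Of 10 measured 5 were lower, 0 were higher and 5 did not pass, with a list median of -0.84, or -0.19 with values raised to background. Over all genes 7.80% were called lower and 6.15% higher. Col4a1 and Col4a2, which form the main collagen IV network, stood at 7.22, 8.84 and 10.01 and at 6.96, 8.74 and 9.90 log2 on the tetraploid arrays, against 11.64, 11.72 and 11.54 and 11.90, 12.07 and 11.66 on the diploid arrays. The differences were -2.94 (limma adjusted p = 0.0275) and -3.34 (adjusted p = 0.0220), and Col4a2 was above background on 2 of the 3 tetraploid arrays. Col4a5 was lower by -1.07 (adjusted p = 0.0365). Col7a1, the anchoring fibril collagen, was at least 3.20-fold lower with values raised to background (adjusted p = 0.00150 for the measured values). Col4a6, the last of those called, lay at or below background on all 6 arrays. Col18a1, the endostatin precursor, stood at 9.07 ± 0.91 against 8.67 ± 0.25 and did not pass (adjusted p = 0.607). The calls of Col4a1, Col4a2 and Col4a5 ended without any 1 diploid array. Those of Col4a1 and Col4a2 also ended without tetraploid array 2, and that of Col4a5 without tetraploid array 1 or 3. The largest adjusted p in these fits was 0.0897 for Col4a1, 0.0776 for Col4a2 and 0.134 for Col4a5.

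Of 16 other basement membrane proteins 5 were lower, 0 were higher and 11 did not pass, with a list median of -0.76, or -0.11 with values raised to background. The shares called over all genes were 7.80% lower and 6.15% higher. Agrn, which encodes agrin, a heparan sulfate proteoglycan that binds laminin and dystroglycan, stood at 8.80, 8.91 and 8.58 log2 on the tetraploid arrays and at 9.66, 10.25 and 10.34 on the diploid arrays (difference -1.32, limma adjusted p = 0.0175). Hspg2 minus Agrn within arrays was 1.34 ± 0.42 and 1.52 ± 0.37 in the tetraploid and diploid lines (SD, n = 3; exact permutation p = 0.500, adjusted 0.667 over the 8 pairs). Tinagl1 was lower by -2.20 (adjusted p = 0.00416), the collagen-binding glycoprotein gene Sparc by -1.24 (adjusted p = 0.0348) and the peroxidasin gene Pxdn, whose enzyme crosslinks collagen IV, by -0.71 (adjusted p = 0.0413). Smoc1 was at least 2.38-fold lower with values raised to background (adjusted p = 0.0341 for the measured values). The call of Agrn ended without diploid array 2 or 3, those of Sparc and Smoc1 without tetraploid array 2 or any 1 diploid array, and that of Pxdn without any 1 array. The largest adjusted p in these fits was 0.0784, 0.115, 0.104 and 0.143 in this order, and for Tinagl1, which stayed called, 0.0236.

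Receptors for laminins were lower for some integrin subunits. Of 14 genes 4 were lower, 0 were higher and 10 did not pass, with a median of -0.62, or -0.07 with values raised to background. Beside this, 7.80% of all genes were called lower and 6.15% higher. Itgb1, the beta subunit shared by most laminin-binding integrins, stood at 11.78, 11.97 and 12.23 log2 on the tetraploid arrays and at 13.29, 13.15 and 13.07 on the diploid arrays (difference -1.18, limma adjusted p = 0.0143). Itga7, the alpha subunit of the muscle laminin receptor, was lower by -2.38 (adjusted p = 0.0109) and Itga1 by -1.93 (adjusted p = 0.0268). Each was above background on 1 of 3 tetraploid arrays, so with values raised to it their levels were at least 3.73-fold and 2.95-fold lower. Itga2 lay at or below background on all arrays. Itga6, a laminin receptor subunit of many cells, had values of 8.15, 8.08 and 8.66 against 8.74, 7.85 and 9.06 (adjusted p = 0.695). Dag1, which encodes dystroglycan, had a difference of -0.57 (adjusted p = 0.131). Itga3 had the opposite sign without passing (difference 1.50, adjusted p = 0.0958). The call of Itgb1 ended without diploid array 1 or 2 (adjusted p at most 0.0656), and that of Itga1 in 5 of the 6 fits with an array left out, tetraploid array 3 being the exception (at most 0.0904). That of Itga2 ended without diploid array 1 or 3 (at most 0.0631). Bringing its values up to background ended it by construction (0.463), since all of them lay at or below that level.

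The genes that glycosylate dystroglycan or anchor it to the cytoskeleton went both ways. Of 18 measured 2 were lower, 2 were higher and 14 did not pass, with a median of -0.03, or 0.06 with values raised to background. These counts are not read as more than the share over all genes, 7.80% lower and 6.15% higher. Dmd, which encodes dystrophin, stood at 4.44, 0.03 and 0.04 log2 on the tetraploid arrays, all below background, and at 8.40, 8.41 and 8.10 on the diploid arrays. With values raised to background Dmd was at least 2.02-fold lower in the tetraploid line (limma adjusted p = 0.0122 for the measured values). Rxylt1, a glycosyltransferase gene of the dystroglycan sugar chain, was lower by -0.70 (adjusted p = 0.0461). Dtna, the dystrobrevin alpha gene, was higher by 1.64 (adjusted p = 0.0238), and Large2, called higher as well, lay at or below background on all arrays. The calls of Rxylt1, Dtna and Large2 did not hold when arrays were left out: that of Rxylt1 ended in 6 of 6 fits, that of Dtna without tetraploid array 2 or any 1 diploid array, and that of Large2 unless tetraploid array 1 was the one left out (adjusted p at most 0.150, 0.0919 and 0.127). Raising values to background ended that of Large2 by construction, since all its values lay at or below it (adjusted p = 0.463).

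Other laminin chains and the netrins, which share a domain with laminins, had 7 measured members. Of these 1 was lower, 1 was higher and 5 did not pass (median 0.13). With 1 call each way, this is not read as more than the 7.80% lower and 6.15% higher over all genes. Lama3 and Lamc3 lay at or below background on all arrays, and Lamb3 had means of 7.92 ± 0.29 and 7.63 ± 0.46 (limma adjusted p = 0.581). Ntn4, a netrin that binds the laminin gamma chain, was lower, but raising values to the background level ended its call (adjusted p = 0.572), as did leaving out tetraploid array 1 or any 1 diploid array (at most 0.0671). Ntn1, an axon guidance factor, was higher by 1.31 (adjusted p = 0.0310), and its call ended without any 1 array (adjusted p 0.0513 to 0.112). Ntn1 was above background on 1 of 3 diploid arrays, so with values raised to it the level was at least 1.85-fold higher.

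**Figure D4:**
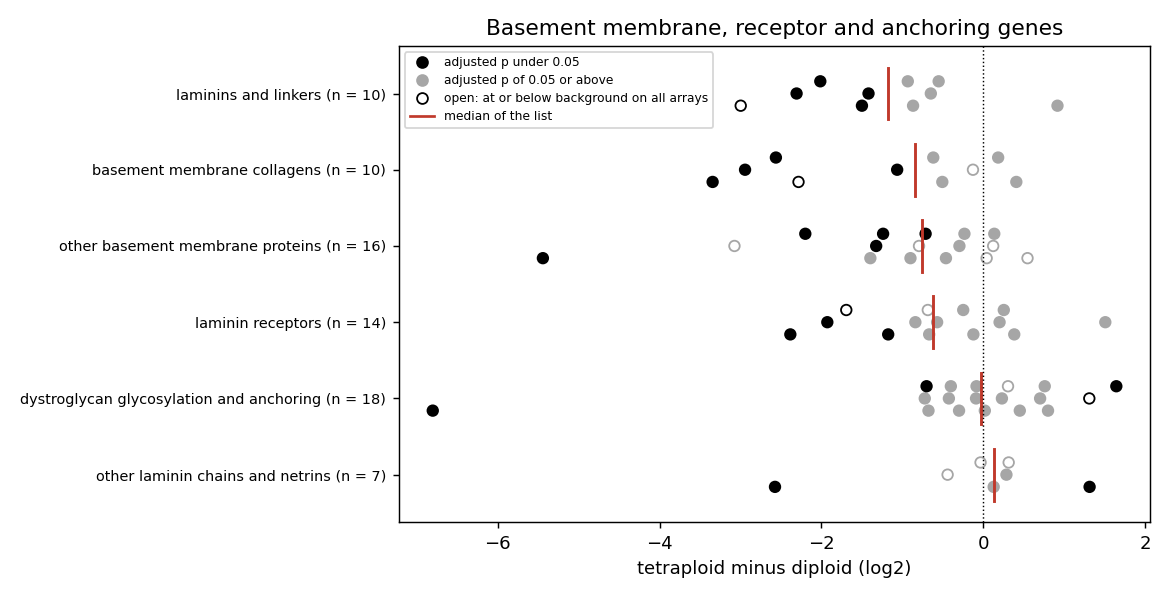
Difference between the lines on the log2 scale, tetraploid minus diploid, for every measured gene of 6 lists; black points passed the test, grey points did not, open points lay at or below background on all 6 arrays, and red bars are list medians. The medians run from -1.18 for the laminins and linkers to 0.13 for the other laminin chains and netrins.

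Some markers of other cell types were lower in the tetraploid line and 0 were called higher, where 7.80% of all genes were called lower. Of 9 endothelial markers 3 were lower in the tetraploid line, namely Kdr, Flt1 and Emcn, and the list mean was 5.92 to 6.22 log2 on the tetraploid arrays and 7.23 to 7.38 on the diploid arrays. The defining markers Pecam1, Cdh5, Tek and Tie1 lay at or below background on all 6 arrays. Cldn5, the 1 endothelial marker above background on all 6 arrays, was higher in the tetraploid line without overlap but was not called (difference 0.45, limma adjusted p = 0.179). Kdr and Emcn were above background on 0 tetraploid arrays and Flt1 on 1. Differences lay below 0 in 6 of the 9 endothelial markers and above 0 in 3. Of 8 skeletal and smooth muscle markers Des, Myh11 and Actg2 were lower (list mean 6.64 to 8.13 against 9.43 to 9.93). Of 5 mesothelial markers Upk1b, Wt1 and Lrrn4 were lower (list mean 3.85 to 4.78 against 5.82 to 6.94), the last 2 at or below background on all arrays. Of 10 macrophage and leukocyte markers Lyz2 and C1qa were lower (list mean 3.91 to 4.11 against 4.91 to 7.39). Des, Myh11, Upk1b, Lyz2 and C1qa were above background on 0 tetraploid arrays and Actg2 on 1. The endothelial, muscle, mesothelial and macrophage list means include values under background, so their gaps give no measured size. With values raised to background, the list median went from -2.63 to 0.06 for macrophage markers and stayed at -1.27 for muscle markers. The skeletal muscle genes Myod1, Myog and Myf5 did not pass. Of 9 epithelial markers Krt18 was lower, of 8 endoderm markers Thbd and of 6 Schwann and neural markers Ncam1. The means of these lists were 6.74 to 6.89 against 6.88 to 7.10 (epithelial), 6.41 to 6.72 against 7.00 to 7.34 (endoderm) and 8.70 to 8.93 against 9.04 to 9.08 (Schwann and neural). These 3 lists had 1 called gene each, which is not read as more than the share over all genes. Of the differences, 6 of 9 in the epithelial and 5 of 8 in the endoderm list lay above 0 (medians 0.25 and 0.14), and the lower list means go with the single genes Krt18 (-3.59) and Thbd (-7.27), neither above background on any tetraploid array. The mesothelial marker Msln had a difference of 2.80 without passing (limma adjusted p = 0.140). Of the 10 fibroblast markers Col1a1 and Fn1 were lower (list mean 11.94 to 12.36 against 12.26 to 12.48). Differences lay below 0 in 7 fibroblast markers and above 0 in 3, namely Pdgfra (1.39, limma adjusted p = 0.0618), Dcn and S100a4, none of them called. With 1 array left out the call of Krt18 ended without tetraploid array 2 (adjusted p = 0.0545). Those of Lyz2, C1qa, Lrrn4 and Ncam1 ended in 4 of the 6 fits and those of Col1a1 and Fn1 in 5, diploid arrays 2 and 3 among the arrays left out in each case (at most 0.0970, 0.119, 0.141, 0.127, 0.138 and 0.152). Bringing values up to background ended the calls of Emcn, Krt18, Lyz2, C1qa, Wt1 and Lrrn4 (adjusted p 0.0762 to 0.957), for Wt1 and Lrrn4 by construction. The part of any of these in the laminin and linker values was not tested.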

How the data were processed

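RNA of 3 tetraploid and 3 diploid samples was depleted of ribosomal RNA and hybridised as labelled sense-strand target, per the labels' protocols. The deposited values are log2 probe set values; the submitters' processing notes name Affymetrix Expression Console, and its algorithm, background correction, normalization and genome build are not given in the sources used here. Values were used as deposited, since array medians differed by less than 0.1. Of 28944 probe sets, 21789 had 1 gene symbol, 1621 had several and 5534 had none in the platform table. Those with 1 gene in the RefSeq table of GRCm38.p6 numbered 21698, and the 1 with the highest mean per gene (993 genes had more than 1) left 19856 genes.

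The lines were tested against each other by the lmFit and eBayes functions of limma 3.58.1 (R 4.3.3), with no block, after a check on simulated data. An adjusted p under 0.05 was a call. Where all arrays of 1 line (for Lama2, Itga7, Itga1 and Ntn1, 2 of 3) were at or below background, folds are bounds with values raised to it. Deviations of same-numbered arrays correlated at 0.101, 0.0307 and -0.0461, so numbers were not taken as pairs. All 10 members are named, with up to 4 called genes per direction of each companion list, by size among those above background in at least 1 line, and textbook partners; called genes outside this rule (Pxdn, Col4a6, Itga2, Large2) and Itga3, Lamb3 and Lamc3 were named after their values were seen, as were called markers and neighbours. The members and lists were chosen with earlier results of these data known. Alternatives were each array left out, a replicate block, median centring, quantile normalization, averaged probe sets, a filter on dim genes, values raised to background and a variance trend. The filter kept genes above background on all arrays of at least 1 line. Protein sequences were not used here.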

Additional observations from a re-analysis of the deposited data

How the results depend on the processing

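Of the 10 genes, 5 were called lower and 0 higher as reported. With 1 array left out, 3 to 6 were called lower and 0 to 1 higher; the count of lower genes was 3 without any 1 diploid array, and the gene called higher, without tetraploid array 1, was Nid2. With all 6 arrays, the other settings gave 5 to 7 lower and 0 higher. The difference of Lama1 turned to 0.12 with values raised to the background level, by construction, since all its values lay under it. The replicate block left 5 members called, and changed the count of all genes from 2770 to 1644, that of other basement membrane proteins called lower from 5 to 3 and that of dystroglycan genes called lower from 2 to 1; same-numbered arrays were not taken as pairs.

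With 1 array left out, the calls over all genes ranged from 837 to 2532 (1596 without tetraploid array 2, 1038, 837 and 1259 without diploid arrays 1 to 3). In the same fits, basement membrane collagens called lower ranged from 2 to 4, other basement membrane proteins from 1 to 5, laminin receptors from 1 to 4 (0 to 1 higher), dystroglycan genes from 1 to 2 (0 to 2 higher) and other laminin chains and netrins from 0 to 1 (higher, 0 in every such fit, against 1 with all arrays). Values raised to background gave 0 netrins or laminin chains lower, 1 receptor higher, and 4 dystroglycan genes lower and 4 higher. Testing only the 10604 genes above background on all arrays of at least 1 line gave 1 receptor and 4 dystroglycan genes higher, and a variance trend gave 2 receptors higher. That filter admits genes through the line where they are high. The cause of these shifts was not tested. Median centring, quantile normalization and averaged probe sets moved none of these counts by more than 1.5 times. For arrays the signal over background is the limit: Lama1 has no measurable fold, and the folds of Lama2 and Lama5 are lower bounds.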
